A study of Mus musculus with 12 samples.

Results

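The 8 endothelial genes followed here were measured across mammary tissue and mammary tumor cell lines of the mouse. They are Pecam1, Cdh5, Kdr, Tek, Sox18, Madcam1, Plvap and Edn1. These are 8 of the 12393 genes that had a probe set of their own on the array, and all 9 probe sets annotated to them were taken. The members are genes known from blood vessel endothelium, and they were chosen with earlier results of these data known. The series measured total RNA with 12 single-color arrays, 3 in each of 4 groups. The first group was 3 breast cancer cell lines, 1 array a line: ME-A, the revertant ME-B, and ME-B-T/t, labelled retransformed. They are different lines, so their spread is a spread between lines. The second group was 3 breast tumors of WAP-SVT/t mice. The third was 3 mammary glands of WAP-SVT/t mice without a tumor label, and the last was 3 mammary glands of NMRI mice without the transgene. All 6 glands were taken on the first day of lactation. Both transgenic groups make the SV40 T and t antigens in mammary epithelial cells only, per the labels, and all tissue came from females of the NMRI strain. The sources used here give no ages. Nothing in the labels beyond sample numbers and tumor names says that samples of a group came from separate animals, so each p measures the spread between these samples.

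Endothelial cells line the blood vessels, and adherens junctions and adhesion molecules hold them to each other. VEGF acts through its receptor Kdr to drive vessel growth, and angiopoietins act through the receptor Tek to keep vessels stable. In the mammary gland the capillary bed grows in pregnancy and serves milk secretion in lactation, and tumors draw vessels from the tissue around them.

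On the GRCm38.p6 build Pecam1 lies at chr11:106654213-106715281, Cdh5 at chr8:104101613-104144504 and Kdr at chr5:75932827-75979072. Tek lies at chr4:94739086-94874976, Sox18 at chr2:181669837-181671640 and Madcam1 at chr10:79664559-79668542. Plvap lies at chr8:71497753-71511806 and Edn1 at chr13:42301476-42307990. RefSeq promoters of this build were at hand for 4 of the 8 genes. Each window is the 250 bases before 1 annotated transcript start. For Kdr that start lies inside the gene span given above, so the whole window does too, and for Tek most of the window does. The windows are shown because GGAA, the core of sites bound by ETS factors, recurs in enhancers and promoters of endothelial genes. Capitals mark GGAA on the strand of the gene and TTCC, the same core on the other strand.

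Tek, chr4:94739039-94739288, plus strand: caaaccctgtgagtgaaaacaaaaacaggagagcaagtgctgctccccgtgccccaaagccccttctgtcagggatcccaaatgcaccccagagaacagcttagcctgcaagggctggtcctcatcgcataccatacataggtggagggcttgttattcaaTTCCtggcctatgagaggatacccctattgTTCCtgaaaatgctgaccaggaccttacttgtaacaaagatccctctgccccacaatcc
Kdr, chr5:75978456-75978705, minus strand: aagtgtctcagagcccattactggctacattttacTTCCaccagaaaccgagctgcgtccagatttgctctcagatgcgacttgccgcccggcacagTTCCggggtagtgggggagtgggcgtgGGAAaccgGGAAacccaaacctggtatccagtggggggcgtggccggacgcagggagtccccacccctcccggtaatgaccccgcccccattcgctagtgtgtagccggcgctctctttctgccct
Madcam1, chr10:79664309-79664558, plus strand: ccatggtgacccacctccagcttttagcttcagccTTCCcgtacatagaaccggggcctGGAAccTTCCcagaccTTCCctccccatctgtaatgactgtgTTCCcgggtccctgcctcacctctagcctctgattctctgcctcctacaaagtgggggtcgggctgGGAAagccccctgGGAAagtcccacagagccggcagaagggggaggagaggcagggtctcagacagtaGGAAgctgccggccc
Edn1, chr13:42301226-42301475, plus strand: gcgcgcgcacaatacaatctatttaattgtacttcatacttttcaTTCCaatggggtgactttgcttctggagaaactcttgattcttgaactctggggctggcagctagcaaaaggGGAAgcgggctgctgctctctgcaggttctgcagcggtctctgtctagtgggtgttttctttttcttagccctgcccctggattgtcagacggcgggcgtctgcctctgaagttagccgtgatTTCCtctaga

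Searched on both strands, GGAA occurred 8 times in the window of Madcam1, 4 times in that of Kdr, 3 times in that of Edn1 and 2 times in that of Tek. It is a common word: 93.4% of the 32851 RefSeq promoters hold it in 250 bases, with a median of 3. ACAAT, a core bound by SOX factors such as the product of Sox18, occurred 4 times in the Edn1 window and 2 times in the Tek window. It was not found in those of Madcam1 and Kdr, and 27.7% of all promoters hold it. The word AGATAA, bound by zinc finger factors of blood and vessel cells and held by 9.99% of promoters, was in none of these 4 windows. The AP-1 forms TGACTAA and TGANTCA, held by 2.01% and 6.75%, were in none either. The 50 bases after each start, not printed here, were searched too. They held AGATAA 1 time each for Tek and Edn1, TGACTAA 1 time for Edn1, and GGAA 1 time each for Madcam1 and Kdr. A match is a description of these letters and not a measured binding site.

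Signals are array intensities after scaling of each array, and a value under 57.5, the 30th percentile of all arrays together, was set to that floor for folds and tests. Differences are on the log2 scale, first named group minus second, with standard error. A gene was called when its adjusted p was under 0.05. The 12 arrays stood close to a common scale, their trimmed means lying within 1.19-fold. They differed in RNA integrity, read from the Gapdh controls as 3-prime over 5-prime signal. This Gapdh ratio was 0.753 to 0.949 in the lines, 5.63, 0.982 and 0.969 in tumors 1 to 3, 10.7, 2.49 and 22.5 in WAP-SVT/t glands 1 to 3, and 12.9, 2.28 and 40.3 in NMRI glands 1 to 3. Same-numbered glands of the 2 groups were alike in it. Luminal epithelial markers were present in all tissue arrays and in ME-A, where their mean log2 signal was 10.98, but low in ME-B and ME-B-T/t, at 6.67 and 6.49.

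The junction and adhesion genes come first. Pecam1, which encodes the adhesion protein CD31 of endothelial junctions, platelets and some leukocytes, had signals of 189.6, 86.7 and 108 in tumors 1 to 3. WAP-SVT/t glands had 221, 269.8 and 101, and NMRI glands 213, 286 and 109. The 3 groups overlapped. Pecam1 was below the other arrays of its group in gland 3 of either group, the arrays with the highest Gapdh ratios. Cdh5, which encodes VE-cadherin of the endothelial adherens junction, had 375, 175 and 228 in tumors, against 454, 377 and 431 in WAP-SVT/t glands and 500.2, 413 and 769 in NMRI glands. All tumors lay below all glands of either kind, though tumor 1, at 375, was just under WAP-SVT/t gland 2, at 377. Its other probe set was above the floor on only 4 of 12 arrays and above the pooled median of 139.9 on 0, and it was not tested.

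The receptors followed. Kdr, the main signalling receptor for VEGF-A, had 316, 204 and 109 in tumors. It had 319, 368 and 399 in WAP-SVT/t glands and 499.8, 324 and 479 in NMRI glands, so tumor 1 lay just under the lowest glands. Tek, the angiopoietin receptor also named TIE2, had 145, 87.6 and 84.8 in tumors, against 242, 221 and 377 in WAP-SVT/t glands and 334, 302 and 302 in NMRI glands. The brightest tumor was well below the dimmest gland. Sox18, a transcription factor gene of vessel and lymphatic development, had 249.8, 185 and 206 in tumors and 370.2, 317 and 181 in WAP-SVT/t glands. NMRI glands had 322, 360.3 and 349, above all tumors, while WAP-SVT/t gland 3 fell among the tumors.

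Madcam1 encodes the mucosal addressin, a vessel surface protein that binds lymphocytes carrying the integrin made from Itga4 and Itgb7 and that is known from venules of the mouse mammary gland. Its signals were 54.3, 66.8 and 85.5 in tumors, the first under the floor. They were 218, 194 and 109.9 in WAP-SVT/t glands and 284, 317 and 287 in NMRI glands, and no group overlapped another. Plvap encodes the protein of the diaphragms that span endothelial fenestrae and caveolae, and it went the other way. It had 286, 292 and 174 in tumors, against 91.4, 163 and 180.3 in WAP-SVT/t glands and 117, 73.0 and 106 in NMRI glands. Every tumor was above every NMRI gland, but tumor 3 lay within the range of the WAP-SVT/t glands.

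Edn1, the gene of the vasoconstrictor peptide endothelin-1, had 46.9, 37.8 and 41.8 in tumors, all under the floor. WAP-SVT/t glands had 95.4, 118 and 173, and NMRI glands 29.0, 185 and 201. NMRI gland 1 was thus at the floor like the tumors, and the other 5 glands were above it. Only 3 tissue arrays brought Edn1 above the median, so it passed the filter on dim genes with none to spare.

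**Figure D1:**
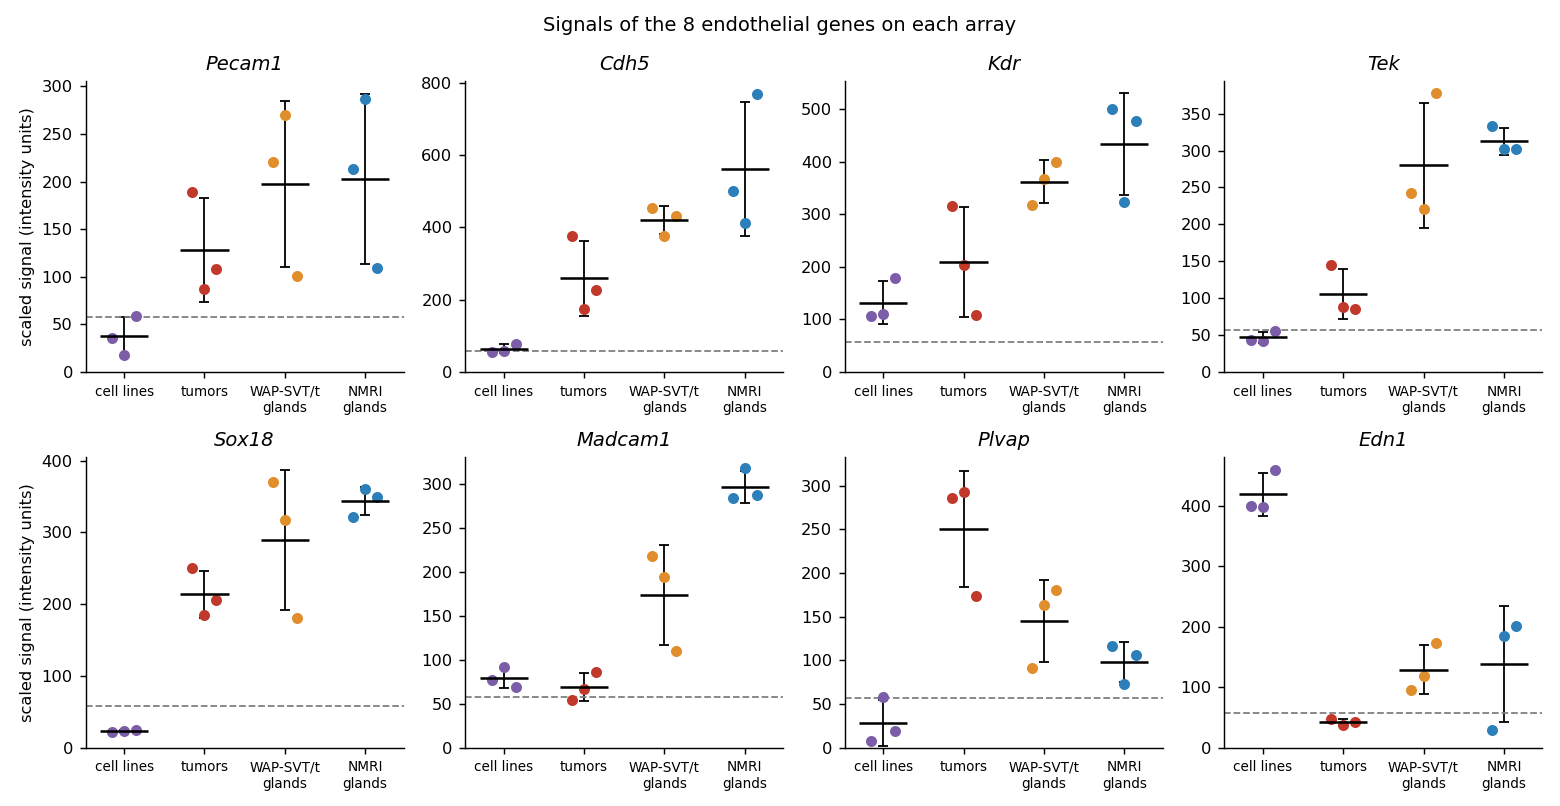
Scaled signals (intensity units, vertical axis from 0) of the 8 endothelial genes on each array, in cell lines, tumors, WAP-SVT/t glands and NMRI glands; points are arrays, thick bars the mean and thin bars the SD (n = 3), and the dashed line is the floor of 57.5. Tek, Madcam1, Cdh5 and Kdr are lower in all 3 tumors than in all 6 glands, Cdh5 and Kdr by little in tumor 1. Plvap is higher in all tumors than in all NMRI glands, and Edn1 is highest in the 3 cell lines.

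Tumors were set against WAP-SVT/t glands to compare tumor and gland of transgenic animals. Tek fell 2.65-fold, with 106 ± 34.0 in tumors and 280.0 ± 85.0 in WAP-SVT/t glands (SD, n = 3 each; difference -1.41 ± 0.29, adjusted p = 0.0290). It was the 1 member of 8 that passed, where 2.95% of all 7898 genes passed, 1.24% as higher and 1.71% as lower. Madcam1 just missed the threshold at 68.9 ± 15.7 against 174 ± 56.8 (difference -1.27 ± 0.30, adjusted p = 0.0503). The median difference of the 8 members was -0.84, against -0.00 over all genes. For 5 of the 8, Tek, Madcam1, Kdr, Cdh5 and Edn1, all tumors lay below all of these glands. Groups did not overlap for 19.7% of all genes, 8.79% with tumors higher and 10.9% with tumors lower. Madcam1 and Edn1 exceeded the pooled median in glands alone, so the number 5 is not read against that share. In bulk tissue fewer endothelial cells and less RNA per endothelial cell cannot be told apart.

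The other members did not pass in that comparison. Kdr had a difference of -0.91 ± 0.36 (adjusted p = 0.235) and Cdh5 of -0.77 ± 0.32 (adjusted p = 0.267). Edn1 was at least 2.17-fold lower by its group means, the tumors being at the floor, with an adjusted p of 0.254. Plvap stood at 251 ± 66.7 in tumors and 145 ± 47.1 in WAP-SVT/t glands (difference 0.81 ± 0.34, adjusted p = 0.273). For Pecam1 the 95% interval of the difference ran from -1.61 to 0.44 and for Sox18 from -1.01 to 0.24, which leaves room for a fall of more than 2-fold. The call of Tek was lost with the Gapdh ratio as a covariate (adjusted p = 0.163), without both glands numbered 3 (0.135), or without WAP-SVT/t gland 1 (0.0685) or 3 (0.0891), NMRI gland 1 (0.0505) or 2 (0.0510), or tumor 2 (0.134) or 3 (0.0782). The call of Madcam1 was gained without both glands numbered 3 (adjusted p = 0.0456) and without WAP-SVT/t gland 3 alone (0.0209).

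Against NMRI glands, the tumors differed in more members: 4 fell and 1 rose, of 8. Among all genes 11.7% were called lower, 12.9% higher and 24.6% in either direction. Madcam1 exceeded the pooled median in glands alone and Plvap in no NMRI gland, so these counts are not read against those shares. Madcam1 was 4.29-fold lower, with 68.9 ± 15.7 in tumors and 296 ± 18.4 in NMRI glands (difference -2.10 ± 0.30, adjusted p = 0.000662). Tek was 3.05-fold lower, with 106 ± 34.0 against 313 ± 18.5 (difference -1.61 ± 0.29, adjusted p = 0.00278). Tek kept this call in each alternative setting and in each fit without 1 array. Madcam1 kept it in each of those in which it was tested, the stricter filter on dim genes leaving it out. Both genes act at the vessel surface, one in lymphocyte homing and one in angiopoietin signalling.

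Cdh5 was 2.20-fold lower (259 ± 104 in tumors, 561 ± 185 in NMRI glands; difference -1.14 ± 0.32, adjusted p = 0.0248). Kdr was 2.23-fold lower (209.5 ± 104 in tumors, 434 ± 96.2 in NMRI glands; difference -1.16 ± 0.36, adjusted p = 0.0366). Plvap was 2.53-fold higher in tumors, with 251 ± 66.7 against 98.4 ± 22.7 in NMRI glands (difference 1.34 ± 0.34, adjusted p = 0.0166). It was the only member with a higher mean in tumors than in either kind of gland. Tumors and NMRI glands did not overlap for 6 members, the 5 called ones and Sox18. The same held for 43.9% of all genes, 22.4% with tumors higher and 21.5% with tumors lower. As Madcam1 and Plvap are among the 6, their number is not read against that share. Sox18 had a difference of -0.70 ± 0.28 (adjusted p = 0.0980) and Pecam1 differed by -0.63 ± 0.47 (adjusted p = 0.351). Edn1 was 2.24-fold lower (adjusted p = 0.0857). This fold depends on the floor and is not a bound, as all tumors and NMRI gland 1 were set to the floor.

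With the Gapdh ratio as a covariate Cdh5 and Kdr were no longer called (adjusted p = 0.192 and 0.248), nor without both glands numbered 3 (0.0900 and 0.102) or without NMRI gland 1, NMRI gland 3, tumor 2 or tumor 3 alone (0.0579 to 0.121). Plvap lost its call without NMRI gland 2 (adjusted p = 0.0678), tumor 1 (0.0563) or tumor 2 (0.0605), and Edn1 gained one without NMRI gland 1 (0.0104). Sox18 gained one without WAP-SVT/t gland 3 (0.0340), with quantile normalization (0.0353) and with only the arrays of the 2 groups (0.0451).

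WAP-SVT/t glands were set against NMRI glands to compare glands with and without the transgene at the same day of lactation. None of the 8 members passed, 0 against 10.1% of all genes (6.05% higher, 4.03% lower), and by limma 1 had an unadjusted p under 0.05. The called genes of this comparison were 60.1% higher ones, and 71.2% without scaling, where the median of all genes stood at 0.11. That 1 member was Madcam1, with 174 ± 56.8 in WAP-SVT/t glands and 296 ± 18.4 in NMRI glands (difference -0.83 ± 0.30, adjusted p = 0.113). It was also the 1 member whose glands did not overlap, where this held for 31.1% of all genes, 16.3% higher and 14.8% lower. The 95% interval of Tek ran from -0.84 to 0.45, that of Cdh5 from -1.08 to 0.34, that of Kdr from -1.03 to 0.55 and that of Sox18 from -0.93 to 0.32. Plvap lay between -0.23 and 1.28, so a rise of 2-fold was within its interval. Pecam1 and Edn1 had intervals from -1.07 to 0.98 and from -1.05 to 0.96, the widest of the 8.

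**Figure D2:**
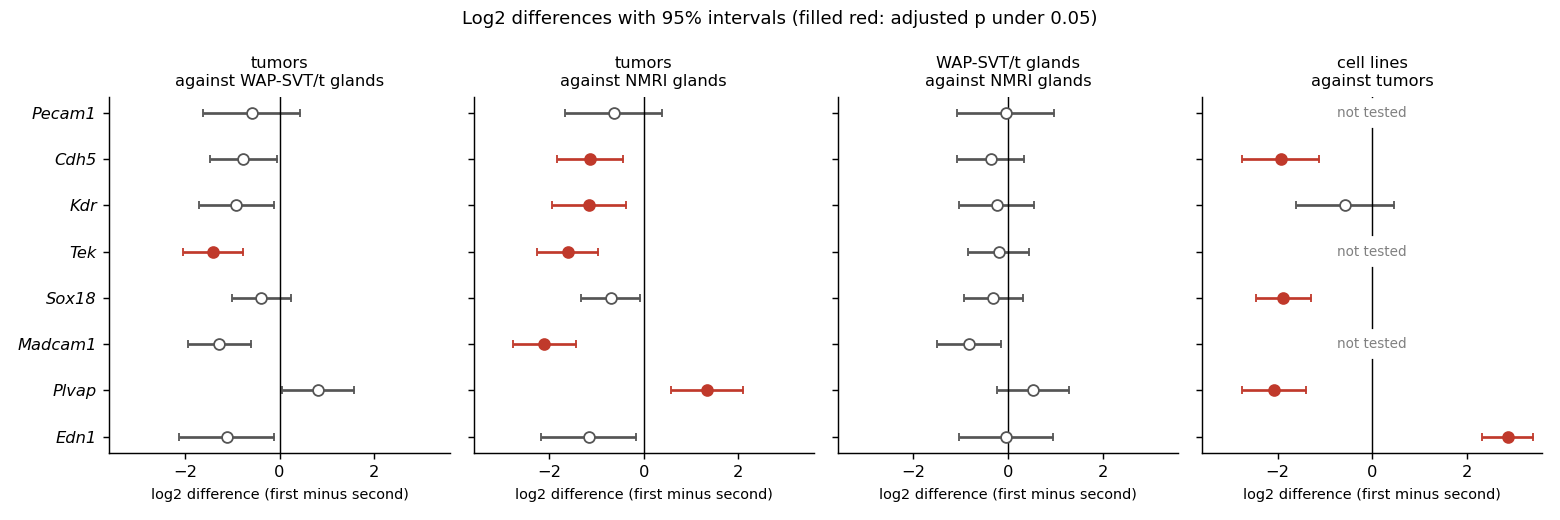
Log2 difference (horizontal axis, first named group minus second) of each member in 4 comparisons, with 95% intervals; filled red points were called at an adjusted p under 0.05, and members that failed the filter on dim genes are written as not tested. Points lie left of 0 for 7 of 8 members in tumors against either kind of gland, and Plvap lies right of it.

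Each pair of these 3 comparisons shares a group of arrays, so the 3 sets of differences are not independent of one another. A ratio within an array was used to see whether the other 5 members moved unequally with the junction and receptor genes. For this the mean log2 signal of Pecam1, Cdh5 and Kdr was subtracted from that of each other member on the same array. Plvap lay 0.45 ± 0.51 above them in tumors, but -1.12 ± 0.64 in WAP-SVT/t glands and -1.86 ± 0.30 in NMRI glands (SD, n = 3 each). The difference was 1.57 for tumors against WAP-SVT/t glands and 2.31 for tumors against NMRI glands, and every tumor was above every gland. Each had an exact permutation p of 0.1, the smallest that 3 arrays against 3 allow, so this design could not reach 0.05. Adjusted over the 15 comparisons made, no p was below 0.25.

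Tek was lower in tumors by this measure too, at -0.80 ± 0.14, against -0.15 ± 0.61 in WAP-SVT/t glands and -0.17 ± 0.01 in NMRI glands. The differences were -0.65 and -0.63, and all tumors lay below all glands (exact p = 0.1 each). Madcam1 stood at -1.37 ± 0.83 in tumors, -0.86 ± 0.35 in WAP-SVT/t glands and -0.25 ± 0.16 in NMRI glands. Tumors and WAP-SVT/t glands were each apart from NMRI glands, by -1.13 and -0.61 (exact p = 0.1 each), and tumors overlapped WAP-SVT/t glands. Groups overlapped for Sox18 and Edn1 in all 3 comparisons (exact p between 0.3 and 0.8). Edn1 was at the floor in all 3 tumors and in NMRI gland 1, and Madcam1 in tumor 1. Their relative values there are the floor minus the 3 reference genes and not a measured ratio.

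**Figure D3:**
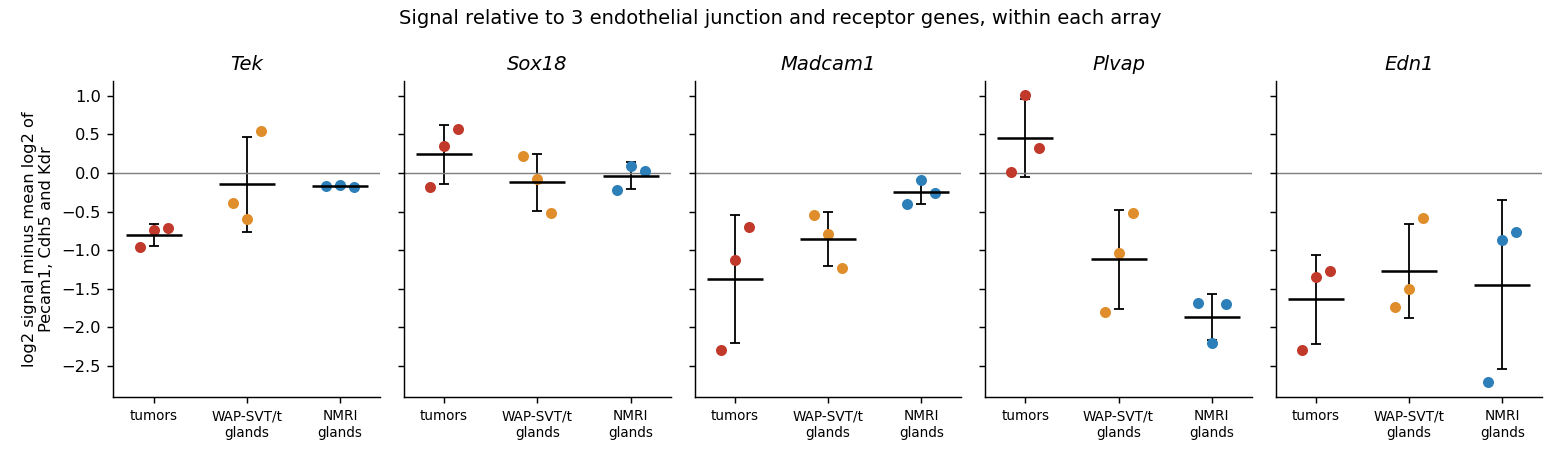
Log2 signal of each of 5 members minus the mean log2 signal of Pecam1, Cdh5 and Kdr on the same array (vertical axis), for tumors, WAP-SVT/t glands and NMRI glands; points are arrays, thick bars means and thin bars SD (n = 3). Plvap lies above 0 in all 3 tumors and below it in all 6 glands, and Tek lies below all glands in all tumors. The points of Edn1 in all 3 tumors and NMRI gland 1, and of Madcam1 in tumor 1, are set by the floor.

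The cell lines were next set against tumors, which hold stroma and blood cells as well. Ctss, a cathepsin gene of macrophages, had 29.6 ± 4.47 in lines, all at the floor, against 3922 ± 587 in tumors. In the order ME-A, ME-B, ME-B-T/t, Tek was under the floor at 43.4, 42.5 and 55.3. Sox18 was under it as well, at 21.9, 23.6 and 24.2, and Plvap had 7.37, 58.3 and 19.7. Pecam1 had 36.0, 18.0 and 58.3 and Cdh5 55.7, 59.5 and 78.6. These 5 genes thus lay at or near the floor in the lines.

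Kdr and Madcam1 were above the floor in all 3 lines, Madcam1 by little. Kdr had 106, 111 and 179.7 there, against 316, 204 and 109 in tumors, and the groups overlapped. Madcam1 had 77.2, 91.2 and 68.7 in lines, within the range of the tumors' 54.3 to 85.5 but for ME-B. Edn1 stood apart from all the others. It had 399.7, 397 and 459 in the lines, against 46.9, 37.8 and 41.8 in tumors, and no tissue array reached these values. Endothelin-1 is known to be made by epithelial cells as well as endothelium.

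Lines were tested against tumors for the 5 members above the filter in these 6 arrays. Tek, Madcam1 and Pecam1 were too dim to be tested. Edn1 rose at least 7.27-fold in lines (difference 2.86 ± 0.23, adjusted p = 0.00158). Sox18 fell at least 3.69-fold (difference -1.88 ± 0.25, adjusted p = 0.0114), Plvap 4.22-fold (-2.08 ± 0.29, adjusted p = 0.0146) and Cdh5 3.82-fold (-1.93 ± 0.35, adjusted p = 0.0380). Kdr differed by -0.58 ± 0.44 (adjusted p = 0.542). Of all 7345 genes 2.30% passed, 0.422% higher and 1.88% lower, and 23.5% did not overlap, 11.2% higher and 12.3% lower. The 4 called members entered the test through the group in which they were bright, so their number is not read against that share. These calls rest on few arrays. Without tumor 1, 2 or 3 Edn1 was no longer called (adjusted p = 0.0958, 0.0957 and 0.0698) and Sox18, Plvap and Cdh5 were too dim to be tested. Without any 1 line Edn1 was itself not tested, so its call stood in none of these 6 fits. Without ME-B the call was lost for Sox18 (adjusted p = 0.0622), Plvap (0.0711) and Cdh5 (0.142), and without ME-B-T/t for Plvap (0.0563) and Cdh5 (0.0732). With the Gapdh ratio as a covariate Sox18, Plvap and Cdh5 were lost too (adjusted p = 0.0632, 0.0809 and 0.146). Of the 10 settings that kept all 6 arrays and tested it, Cdh5 was called in 4 (adjusted p = 0.0504 to 0.146 in the others) and Plvap in 8.

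Ranked by mean signal, Tek, Sox18, Pecam1, Cdh5 and Kdr had one order: NMRI glands, WAP-SVT/t glands, tumors, then cell lines. The 2 kinds of gland were neighbours that overlapped for each of these genes. Tumors were apart from WAP-SVT/t glands for Tek, Cdh5 and Kdr and overlapped them for Sox18 and Pecam1, and lines were apart from tumors for all but Kdr. Madcam1 had lines and tumors overlapping at the low end. Plvap ran from tumors down through WAP-SVT/t and NMRI glands, each overlapping its neighbour, to lines. Edn1 had lines at the top and tumors at the bottom.

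Over the 9 tissue arrays Plvap correlated negatively with each of the other 7 members, with Pearson's r between -0.37 (Kdr) and -0.92 (Madcam1). The highest r between members were 0.87 for Tek with Kdr, 0.85 for Tek with Cdh5 and 0.84 for Sox18 with Madcam1. The arrays fall into 3 groups, so these values describe the arrays and carry no p. The genes most like the mean of the 8 members, of 7890 others, were Dync1h1 (r = 0.99), Csn1s2a (0.98), Gpd1 (0.97), Plin2 (0.97), Pdk4 (0.96), Cd36 (0.96), Dhrs3 (0.96) and Esam (0.96). Csn1s2a is a milk casein gene, Plin2 coats lipid droplets, and Gpd1 is an enzyme of glycerol phosphate supply, while Esam is an endothelial adhesion gene.

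The genes closest to single members were these. Cd36 and Gpam, both of fatty acid handling, were closest to Tek (r = 0.98 each). Txnip and the milk gene Wap were closest to Madcam1 (r = 0.98 and 0.97), and Mdfic and the mast cell protease Cpa3 to Kdr (0.98 and 0.97). Ramp2, a receptor partner in endothelial adrenomedullin signalling, and Cxcl9 were closest to Cdh5 (0.96 each). Adcy3 and Hadha were closest to Sox18 (0.95 and 0.93), Slc8b1 and Ccl11 to Pecam1 (0.94 and 0.89), Zfp386 and Actg1 to Edn1 (0.96 and 0.95), and Adcy7 and Tgfbi to Plvap (0.94 each).

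Other endothelial markers were taken as a list of 48 genes, of which 41 had a probe set and 30 passed the filter in tissue. In tumors against WAP-SVT/t glands 0 rose and 4 fell, with a median of -0.75, where 1.24% of all genes were called higher and 1.71% lower. The 4 were Cd36, a fatty acid transporter (22.9-fold lower), Fabp4, a fatty acid binding protein (9.39-fold), the anticoagulant receptor gene Thbd (4.05-fold) and the adhesion receptor gene Adgrl4 (1.86-fold). Cd36 and Fabp4 are also known from adipocytes. Adgrl4 had 175, 144 and 173 in tumors, against 274, 310.1 and 327 in WAP-SVT/t glands and 332, 334 and 354 in NMRI glands. Calls of list genes were repeated in 12 further fits, 9 without 1 array each and 3 with the Gapdh ratio as a covariate, without both glands numbered 3, or with the replicate number as a block. Cd36 was called in 11 of them, Fabp4 in 4, Thbd in 3 and Adgrl4 in 0 (adjusted p = 0.0559 to 0.188).

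In tumors against NMRI glands 1 of these markers rose and 10 fell, with a median of -0.77 against 0.02 over all genes, of which 12.9% were called higher and 11.7% lower. Sox17, among those that fell, exceeded the pooled median in glands alone, so these counts are not read against those shares. Tm4sf1, a membrane protein gene of endothelium that carcinomas also express, rose 6.16-fold, with 6412, 5842 and 4252 in tumors, against 679.98, 938 and 1067 in NMRI glands. The lines had 3884, 4890.5 and 1588. Adgrl4 fell 2.08-fold (adjusted p = 0.00435), Cd36 37.8-fold and Fabp4 7.38-fold. With the Gapdh ratio as a covariate 1 rose and 4 fell, and without both glands numbered 3 it was 1 and 8. In WAP-SVT/t against NMRI glands Apln, the gene of the vessel growth peptide apelin, fell (2.40-fold, adjusted p = 0.0170), and Tm4sf1 rose (2.31-fold, adjusted p = 0.0471). The call of Apln held in 10 of the 12 further fits, all but those without NMRI gland 1 (0.0741) or WAP-SVT/t gland 2 (0.0572), and that of Tm4sf1 in 3 (0.0502 to 0.175 in the others). In lines against tumors the junction gene Esam (3.76-fold), the mucin gene Emcn (3.13-fold) and Cd93 (at least 4.96-fold) were called lower, each having passed the filter through the tumors alone. None was called with the Gapdh covariate (adjusted p = 0.0994, 0.127 and 0.162) or without ME-B (0.0864, 0.119 and 0.134) or ME-B-T/t (0.0697, 0.0847 and 0.107), and none was tested without any 1 tumor.

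Ligands, receptors and modulators of VEGF and angiopoietin signalling moved in both directions. Of 14 tested, 1 rose and 1 fell in tumors against WAP-SVT/t glands, and 4 rose and 2 fell against NMRI glands. Of all genes 1.24% rose and 1.71% fell in the first comparison, and 12.9% rose and 11.7% fell in the second. Thbs1, a matrix protein that inhibits vessel growth, had 1027, 607 and 672 in tumors, against 145, 187 and 155 in WAP-SVT/t glands (4.63-fold higher, adjusted p = 0.0342) and 81.8, 394 and 122 in NMRI glands. Its relative Thbs2 rose 3.78-fold against NMRI glands (adjusted p = 0.00233). Vegfb, a ligand of the receptor Flt1, was at least 4.09-fold higher (adjusted p = 0.0131), with all NMRI glands at the floor, and WAP-SVT/t gland 3 was at the floor too. Angptl4, a lipase inhibitor that adipose tissue makes, fell 9.51-fold against WAP-SVT/t glands and 9.84-fold against NMRI glands. The call of Thbs1 against WAP-SVT/t glands held in 4 of the 12 further fits and was lost with the Gapdh covariate (adjusted p = 0.196), without both glands numbered 3 (0.126), and without any 1 tumor or any 1 WAP-SVT/t gland (0.0591 to 0.104). Against NMRI glands 1 gene of the list rose with the Gapdh covariate in place of 4, Thbs1 (0.0563) and Vegfb (0.102) being lost, and Vegfb was lost without tumor 2 (0.0553). None of the 14 passed in WAP-SVT/t against NMRI glands, 0 by limma with 5 at an unadjusted p under 0.05, while 1 passed with the replicate number as a block and 2 with the Gapdh covariate. In lines against tumors Nrp2, a coreceptor for VEGF and semaphorins, was 3.80-fold higher (adjusted p = 0.0205), but it was not called with the Gapdh covariate (0.117) or without any 1 array other than ME-A (0.0718 to 0.238).

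Of the genes that act with Edn1, only the converting enzymes Ece1 and Ece2 were bright enough to test. Neither passed in the main fit of any of the 4 comparisons, 0 by limma. Ece1 alone had an unadjusted p under 0.05, in tumors against NMRI glands, and neither did in the others. Without both glands numbered 3, 1 of the 2 genes was called lower in tumors against NMRI glands. Ece1 differed by -0.69 ± 0.31 in tumors against NMRI glands (adjusted p = 0.128) and by 0.31 ± 0.27 in lines against tumors (adjusted p = 0.598). Ece1 signals were 314, 516 and 477 in the lines where Edn1 was high, and 358, 367 and 306 in tumors.

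Among 9 tested genes of leukocyte adhesion, 1 fell in tumors against WAP-SVT/t glands and 1 fell and 1 rose against NMRI glands. The shares of all genes that fell were 1.71% and 11.7%, and 12.9% rose against NMRI glands. The gene of this list that fell was Glycam1, listed as an addressin of lymph node venules but in the mammary gland known as a milk protein of the epithelium. It had 14.1, 81.8 and 3.41 in tumors, against 4639, 2414 and 3749 in WAP-SVT/t glands and 19723, 19540 and 15224 in NMRI glands. It was also 5.19-fold lower in WAP-SVT/t than in NMRI glands. Glycam1 exceeded the pooled median in glands alone, so the counts of this list are not read against those shares. Icam1, a ligand of leukocyte integrins, rose 2.23-fold in tumors against NMRI glands (adjusted p = 0.0432), a call lost with the Gapdh covariate (0.213) and without NMRI gland 1 or 2 or any 1 tumor (0.0705 to 0.157). In lines against tumors Icam1 (at least 5.41-fold) and the leukocyte genes Itgb2 (5.10-fold) and Selplg (4.10-fold) were called lower. These 3 passed the filter through the tumors alone and were not tested without any 1 of them. Selplg was not called with the Gapdh covariate (adjusted p = 0.0804) or without ME-B (0.0718) or ME-B-T/t (0.0563).

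Of 18 transcription factor genes grouped with Sox18, 1 rose in tumors against WAP-SVT/t glands, while 3 rose and 2 fell against NMRI glands. For all genes 1.24% rose against WAP-SVT/t glands, and 12.9% rose and 11.7% fell against NMRI glands. These counts are not read against those shares, as Hey1 exceeded the pooled median in tumors alone and Sox17 in glands alone. The gene that rose in both comparisons was Hey1, a target of Notch signalling in endothelium and epithelium, with 722, 744 and 660.2 in tumors. It had 41.8, 27.9 and 73.9 in WAP-SVT/t glands and 65.4, 28.2 and 61.7 in NMRI glands, so the groups were far apart (11.3-fold, adjusted p = 5.40e-05, and 11.5-fold, adjusted p = 5.03e-06). Hey1 passed the filter through the 3 tumors alone and was not tested without any of them. Lmo2, a cofactor of early blood and vessel development, fell 2.30-fold (adjusted p = 0.00729) and Sox17, a close relative of Sox18, fell 3.16-fold (adjusted p = 0.0166) against NMRI glands. Foxc1, a forkhead gene of vessel and duct development, rose 2.30-fold (adjusted p = 0.0177). With the Gapdh ratio as a covariate 1 rose and 0 fell, Lmo2 (adjusted p = 0.0546), Sox17 (0.127) and Foxc1 (0.0803) being lost. Foxc1 was also lost without NMRI gland 1 (0.0712), and Sox17 was too dim to be tested without NMRI gland 1, NMRI gland 3 or WAP-SVT/t gland 3. None passed in WAP-SVT/t against NMRI glands, 0 by limma at an unadjusted p under 0.05 as well.

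Of 7 lymphatic markers tested, 0 passed in tumors against WAP-SVT/t glands, with 2 at an unadjusted p under 0.05 by limma, and 1 fell against NMRI glands. That one was Reln, 1.94-fold lower (adjusted p = 0.0472), whose call held in only 2 of the 12 further fits, those without WAP-SVT/t gland 2 or 3 (0.0502 to 0.291 in the others). Of 13 genes of pericytes and vascular smooth muscle, 3 fell in tumors against WAP-SVT/t glands, and 1 rose and 5 fell against NMRI glands. Beside this list and the lymphatic one, 1.71% of all genes fell against WAP-SVT/t glands, and 12.9% rose and 11.7% fell against NMRI glands. The contractile genes Myh11 (7.73-fold against WAP-SVT/t glands), Acta2 (3.40-fold) and Cnn1 (at least 4.51-fold) were the 3 that fell. They are also expressed by myoepithelial cells of the gland. Reln, Myh11 and Cnn1 exceeded the pooled median in glands alone, so the counts of both lists are not read against those shares. Myh11 was called in all 12 further fits, Acta2 in 7 and Cnn1 in 4 (adjusted p = 0.0741 to 0.139 and 0.0548 to 0.152 in the others). Pdgfrb, a pericyte and fibroblast receptor, rose 2.31-fold in WAP-SVT/t against NMRI glands (adjusted p = 0.0167), a call lost without NMRI gland 1 (0.0720) or 2 (0.0788). Rgs5, a pericyte gene, had 32.4, 53.8 and 48.5 in lines, against 2018, 574 and 860.1 in tumors.

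Markers of other tissues were read on the same arrays. Of 18 adipocyte genes 14 had a probe set, and their summed signal was 2846 to 20528 in tumors, 39468 to 61560 in WAP-SVT/t glands and 46533 to 58595 in NMRI glands. Between 7 and 11 of the 14 were above the floor in each tumor and 13 in each gland, with Aqp7, Lep and Pparg at the floor in all tumors. Adipoq had 1945 in tumor 1, but 87.7 and 42.5 in tumors 2 and 3. Tumor 1 was also the tumor with the highest Pecam1, Cdh5, Kdr, Tek and Sox18. Madcam1 was lowest in tumor 1 and highest in tumor 3, Plvap was highest in tumor 2, and Edn1 was at the floor in all tumors. Without tumor 1 the median difference of the members was -1.09 against WAP-SVT/t glands and -1.30 against NMRI glands.

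Skeletal muscle markers, 20 of 20 with a probe set, summed to 18590 in tumor 1, 1155 in tumor 2 and 843 in tumor 3. In the WAP-SVT/t glands they summed to 2000 to 32017, high in gland 3 alone, and in NMRI glands to 16313 to 34448. No muscle gene was at the floor on all tumors or all NMRI glands, and Tnnc1 was on all WAP-SVT/t glands. Macrophage markers, 17 of 17 with a probe set and none at the floor on all arrays of a tissue group, summed to 20647 to 24040 in tumors, 14333 to 26961 in WAP-SVT/t glands and 13036 to 20935 in NMRI glands. Of these 10 rose and 1 fell in tumors against NMRI glands, where 12.9% of all genes were called higher and 11.7% lower, and 6 rose and 1 fell with the Gapdh covariate. Fibroblast markers, 17 of 17 with a probe set, summed to 48308, 22313 and 20740 in tumors 1 to 3. The sums were 28299 to 51226 in WAP-SVT/t glands and 24114 to 32093 in NMRI glands. Of the fibroblast markers 3 rose and 1 fell in tumors against NMRI glands, beside the same shares of all genes, and 3 rose and 0 fell with the Gapdh covariate. The part of adipose, muscle, macrophage and fibroblast content in the differences of the 8 members was not tested.

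**Figure D4:**
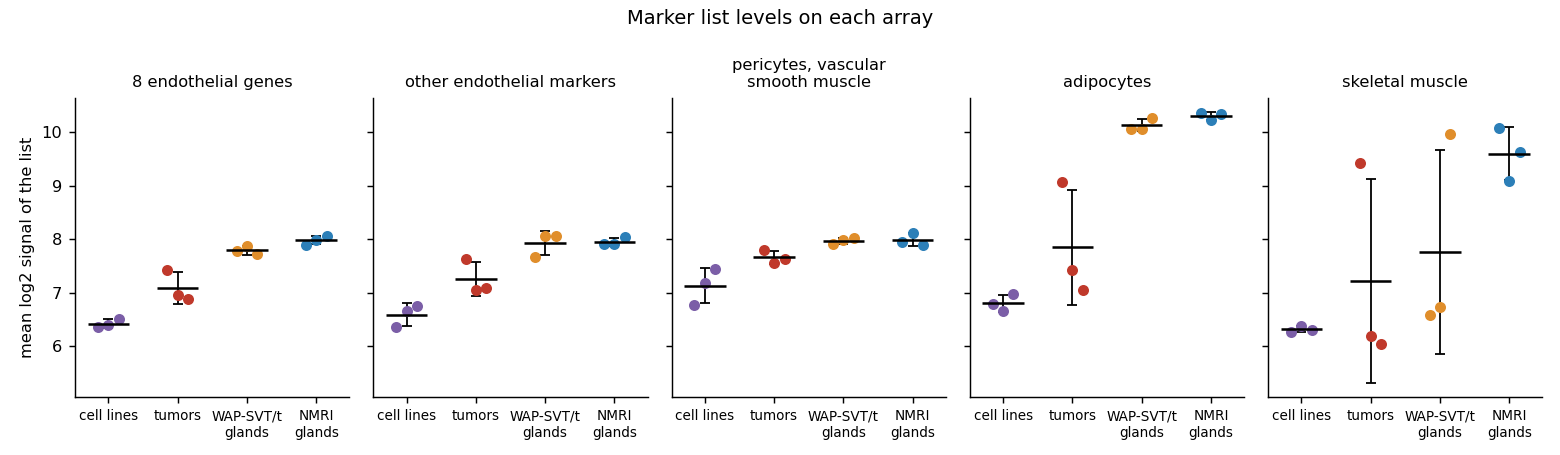
Mean log2 signal (vertical axis) of the genes of 5 marker lists on each array, in cell lines, tumors, WAP-SVT/t glands and NMRI glands; points are arrays, thick bars means and thin bars SD (n = 3). The 8 endothelial genes lie between 6.89 and 7.43 in tumors and between 7.73 and 8.06 in the 6 glands, and adipocyte markers separate the same arrays with a wider gap.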

How the data were processed

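The 12 arrays hold 22690 probe sets each. The authors deposited MAS5 signals on a linear intensity scale, per the submitters' processing notes. The MAS5 version and settings: not given in the sources used here. Each array was scaled to a common trimmed mean (2% trimmed at either end). Signals under the pooled 30th percentile were raised to it, and log2 was taken. The 64 control probe sets were left out, as were 691 probe sets with several genes and 1555 with none. The probe set with the highest mean represented a gene, which entered the test where 3 or more arrays exceeded the pooled median. Where all arrays of a group were at the floor and none of the other group, the fold is a bound. In other cases with arrays at the floor, it depends on the floor.

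Tests used limma 3.58.1 (R 4.3.3; lmFit, eBayes with an intensity trend, two-sided, Benjamini-Hochberg over all genes tested). One fit covered the 9 tissue arrays in 3 groups (6 residual degrees of freedom), another the lines and tumors (4). The code was tested on simulated data. Relative signals were compared by a two-sided exact permutation test. The small number of arrays limits precision. No 2 of the 66 pairs of arrays were identical.

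Alternatives covered scaling, floor, filter, probe set choice, variance model, the Gapdh ratio, single arrays, the replicate block and the 2 groups alone. Fits without both glands numbered 3 and with the block in the 6 glands alone, and the repeats for genes of the lists, were added after the data were seen. No label says that same-numbered glands were handled together. Deviations from the group mean of same-numbered WAP-SVT/t and NMRI glands correlated at 0.22, 0.37 and 0.37. Those of tumor 1 and WAP-SVT/t gland 3, of unlike number, correlated at 0.34. The members, the 13 gene lists (218 of 236 genes with a probe set) and the alternatives were chosen with earlier results of these data known. Named from each list were up to 4 called genes with the smallest p, or up to 2 where none was called, except that some were given as counts or list signals only. Promoters came from RefSeq. Plots used Python 3.11.15 and matplotlib 3.10.9.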

Additional observations from a re-analysis of the deposited data

How the results depend on the processing

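In tumors against WAP-SVT/t glands the number of members called was 2 with no scaling, quantile normalization, the mean of a gene's probe sets or no intensity trend, where Madcam1 joined Tek, and 0 with no filter, the Gapdh covariate or only the 2 groups. Without single arrays it was 0 to 1. Genes called there numbered 233, and 71 with no filter, 101 with the Gapdh covariate, 124 with only the 2 groups, 93 without both glands numbered 3 and 69 to 230.0 without single arrays. Against NMRI glands 5 members became 3 with no filter, a stricter filter, the Gapdh covariate or without both glands numbered 3, and 2 to 6 without single arrays, with 1227 to 2272 genes called. In WAP-SVT/t against NMRI glands no member was called in any setting run, with 394 to 806 genes called without single arrays. In lines against tumors 4 members became 2 with no filter, 0 with a stricter filter, 1 with the Gapdh covariate and 0 to 3 without single arrays. Genes called there numbered 169, and 91, 7 and 54 in those settings, 260 with every probe set on its own and 0 to 783 without single arrays, the last without ME-A. The replicate block left the calls of members as they were (1, 5 and 0). Some small differences changed sign, none of them called. For WAP-SVT/t against NMRI glands Sox18 was 0.010 without both glands numbered 3. Edn1 was 0.0020 with no scaling, 0.26 with a 20th percentile floor, 0.18 with no floor and -0.63 to 0.15 without single arrays. Pecam1 was 0.054 with no scaling and -0.44 to 0.38 without single arrays. Relative to Pecam1, Cdh5 and Kdr, Tek was -0.022 with quantile normalization and -0.0041 with the mean of probe sets in that comparison. Relative Edn1 with a 40th percentile floor was 0.29 for tumors against WAP-SVT/t glands, 0.24 against NMRI glands and -0.045 for WAP-SVT/t against NMRI glands. Edn1 was set to the floor in all 3 tumors and in NMRI gland 1, so its relative values there move with the floor. The cause of the sign changes was otherwise not tested. Signals near the floor limit Edn1 in tissue, Madcam1 in tumors, and all members but Edn1 and Kdr in the lines.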
